A study of Arabidopsis thaliana with 8 samples.

Results

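Root RNA of Arabidopsis thaliana, accession Columbia, was measured on 8 one-colour Affymetrix arrays, and 8 genes of oxidative and mitochondrial stress are described here out of 22810 probe sets. The probe sets of AT2G21640, AT5G51440, NDB2, GSTU25, STZ and SAPX were taken by the gene that the platform annotation gives, and probe-258452_at and probe-248332_at, to which it gives no gene, were taken by row as AOX1A (AT3G22370) and HSP90.1 (AT5G52640). Each of the 8 genes was read from 1 probe set, and any others among the probe sets without a gene name could not be found. Roots came from pye-1, a mutant of the transcription factor gene POPEYE (PYE), and from wild type (WT). Plants were 7 days old after germination and had been moved from standard medium for 24 h to medium with 0.3 mM ferrozine, a chelator of ferrous iron, in place of iron (-Fe) or to medium with iron (+Fe). The 4 groups, pye-1 -Fe, pye-1 +Fe, WT -Fe and WT +Fe, had 2 arrays each, described in the labels as biological replicates of about 320 roots. The mutant is represented by 1 allele.

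Mitochondria that are short of respiratory capacity signal to the nucleus, which switches on a set of genes that includes alternative oxidase and small heat shock proteins. Alternative oxidase takes electrons straight from ubiquinol to oxygen, and external NAD(P)H dehydrogenases feed electrons into the same ubiquinone pool. Iron is a cofactor of most respiratory complexes, of alternative oxidase and of the heme enzyme ascorbate peroxidase, which removes hydrogen peroxide.

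Median signal was 91.5 to 97.6 on the 8 arrays, and the array number limits the precision of every value below. PYE read 25.03 and 28.2 signal units in pye-1 -Fe and 19.1 and 15.0 in pye-1 +Fe, against 138 and 149 in WT -Fe and 56.7 and 65.1 in WT +Fe, so the genotype labels and this probe set went the same way. Of the 8 green tissue markers, 3 had a named probe set, and their summed signal was 566 and 629 in pye-1 -Fe, 750 and 802 in pye-1 +Fe, 674 and 647 in WT -Fe and 920 and 888 in WT +Fe. Of 9 root cell markers, 2 had a named probe set (the root hair expansins EXPA7 and EXPA18). Their summed signal was 885 and 694 in pye-1 -Fe, 1089 and 922 in pye-1 +Fe, 828 and 751 in WT -Fe and 1413 and 1056 in WT +Fe. No marker of either list was at the level of the bacterial control probe sets (11.7 to 23.7 over the arrays) on any array. Both sums were lower without iron in each genotype, PSAN and EXPA18 fell without iron in WT (-0.93 each, adjusted p = 0.0372 and 0.0310), and their part in the results below was not tested. Both of those calls were lost without WT +Fe replicate 1 or without either WT -Fe array, and that of PSAN also without WT +Fe replicate 2 or either pye-1 -Fe array, with adjusted p of 0.0529 to 0.339. On replicate 1 arrays the control for 25S ribosomal RNA lay at 242 to 565, and on replicate 2 arrays at 1691 to 4047.

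The comparisons asked how roots respond to 24 h without iron in each genotype and where the genotypes differ on each medium. Changes are log2 differences ± the standard error (SE) of 1 limma fit over all 15922 tested probe sets and 8 arrays, with Benjamini-Hochberg adjusted p over all of them and a threshold of 0.05. All 8 genes passed the filter on low signal. Because they were chosen by their changes in the 5 comparisons of these same arrays, as seen in earlier results, their calls describe the fit and are not independent evidence. In RNA from whole roots, fewer cells of a type and less RNA per cell cannot be told apart.

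In pye-1 roots without iron, 3 of the 8 genes were called higher than in pye-1 with iron and none was called lower. Of all tested probe sets, 0.848% were called higher. These were HSP90.1, AT5G51440 and AT2G21640, which rose 3.05 to 3.73-fold. In pye-1 -Fe both arrays of these genes and of AOX1A lay above all 6 other arrays, a pattern that 4.4% of tested probe sets shared. In WT none of the 8 genes was called higher without iron, where 0.559% of tested probe sets were. SAPX alone was called lower, where 0.415% were. The median change of the 8 genes was 0.58 in pye-1 and 0.19 in WT, against -0.04 and 0.00 over all tested probe sets. The 8 genes were chosen by such changes, so these medians are a description and no evidence about the set.

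**Figure D1:**
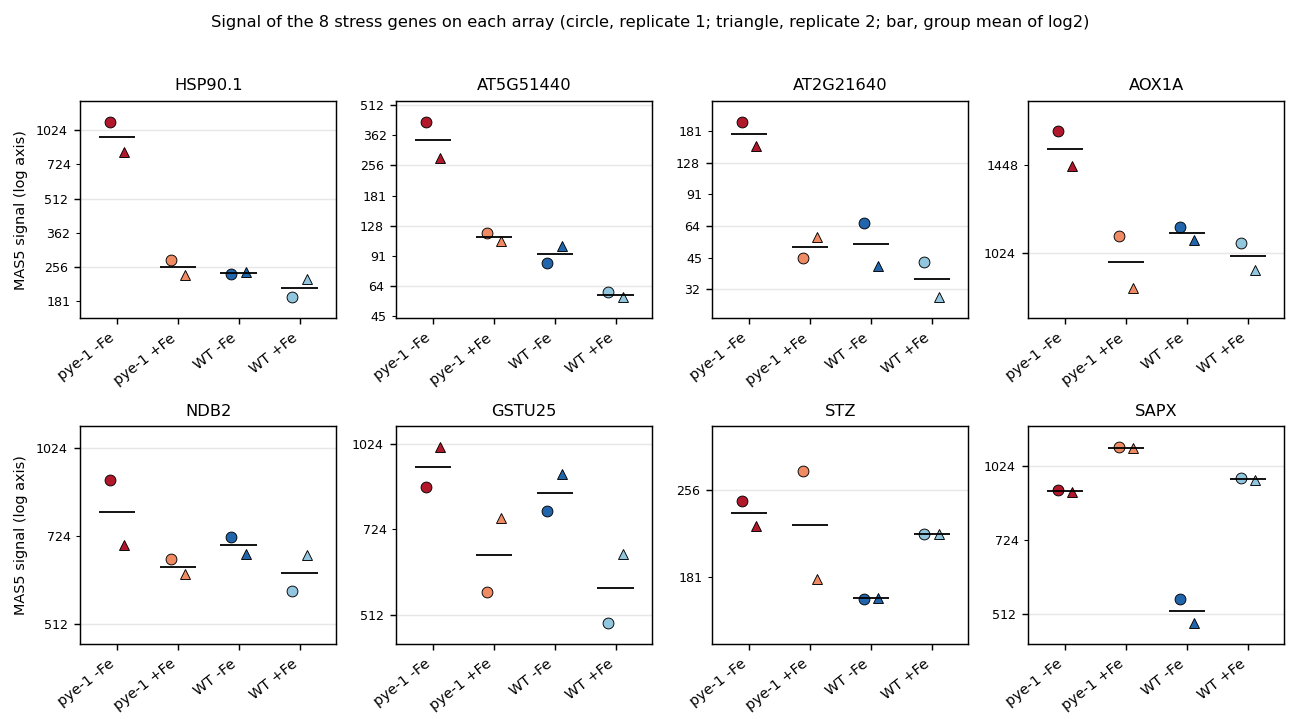
MAS5 signal of each of the 8 genes (log axis) on the 8 arrays, by group, with replicate 1 as circles, replicate 2 as triangles and the group mean of log2 as a bar. HSP90.1, AT5G51440, AT2G21640 and AOX1A have both pye-1 -Fe arrays above all others, and SAPX has both WT -Fe arrays, at 550 and 492, below all others.

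AT2G21640 encodes a mitochondrial protein used as a marker of oxidative stress in that organelle. It read 200 and 153 signal units in pye-1 -Fe, 45.2 and 56.9 in pye-1 +Fe, 66.5 and 41.2 in WT -Fe and 43.3 and 29.3 in WT +Fe. The pye-1 -Fe arrays stood clear, pye-1 +Fe and WT -Fe overlapped, and so did WT -Fe and WT +Fe. Its rise without iron in pye-1 was 1.79 ± 0.31 (adjusted p = 0.0204), with 2.14 in replicate 1 and 1.43 in replicate 2. In WT the change was 0.56 ± 0.31 (adjusted p = 0.706). The iron response of pye-1 minus that of WT, the interaction, was 1.23 ± 0.44 and did not pass (adjusted p = 0.799). Without iron AT2G21640 was higher in pye-1 than in WT by 1.74 ± 0.31 (adjusted p = 0.0438), and with iron the difference was 0.51 ± 0.31 (adjusted p = 0.969). Its lowest value, 29.3 in WT +Fe replicate 2, lay near the level of the bacterial controls on that array, 23.7. The rise in pye-1 missed the threshold without any 1 of the 4 pye-1 arrays (adjusted p of 0.0558 to 0.210), with changes of 1.60 to 1.98. The difference without iron missed it without any 1 of the 4 -Fe arrays (adjusted p of 0.0764 to 0.317), with 1.40 to 2.09.

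AT5G51440 encodes a small heat shock protein of mitochondria, a chaperone that holds unfolding proteins. Its signal was 421 and 278 in pye-1 -Fe, 118 and 107 in pye-1 +Fe, 83.5 and 101 in WT -Fe and 59.6 and 56.1 in WT +Fe. The 4 groups did not overlap at any step of this order. The gene rose by 1.61 ± 0.22 without iron in pye-1 (adjusted p = 0.00465), with 1.84 in replicate 1 and 1.38 in replicate 2, and had a change of 0.67 ± 0.22 in WT (adjusted p = 0.321). The interaction was 0.94 ± 0.31 and did not pass (adjusted p = 0.773). Without iron pye-1 was higher than WT by 1.90 ± 0.22, or 3.72-fold (adjusted p = 0.00311). With iron it differed by 0.96 ± 0.22 (adjusted p = 0.330), 0.98 in replicate 1 and 0.93 in replicate 2, the largest +Fe difference between genotypes among the 8 genes. The call in pye-1 was lost without pye-1 -Fe replicate 1 (1.31, adjusted p = 0.0543), and the call of the -Fe difference was lost without WT -Fe replicate 1 (1.76, adjusted p = 0.0586).

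HSP90.1 is the stress-inducible cytosolic HSP90 chaperone, which helps client proteins reach their active fold. Its signal was 1111 and 819 in pye-1 -Fe, 276 and 237 in pye-1 +Fe, 239 and 245 in WT -Fe and 189 and 227 in WT +Fe. The pye-1 +Fe and WT -Fe arrays overlapped, and WT +Fe lay just below both. HSP90.1 rose by 1.90 ± 0.18 without iron in pye-1, or 3.73-fold (adjusted p = 0.000328), and had a change of 0.23 ± 0.18 in WT (adjusted p = 0.844). It was higher in pye-1 by 1.98 ± 0.18 without iron (adjusted p = 0.000638), against a difference of 0.30 ± 0.18 with iron (adjusted p = 0.957). Neither call was lost when any of the 8 arrays was dropped, with changes of 1.68 to 2.12 and of 1.76 to 2.20. Its iron response was larger in pye-1 than in WT by 1.68 ± 0.25 in the interaction (adjusted p = 0.0499), 1.67 in replicate 1 and 1.68 in replicate 2, and it was the 1 of the 8 genes called there, where 0.0502% of tested probe sets were called in that direction. The interaction missed the threshold whichever array was dropped (adjusted p of 0.0690 to 0.244) and without the intensity trend of the fit (adjusted p = 0.340).

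**Figure D2:**
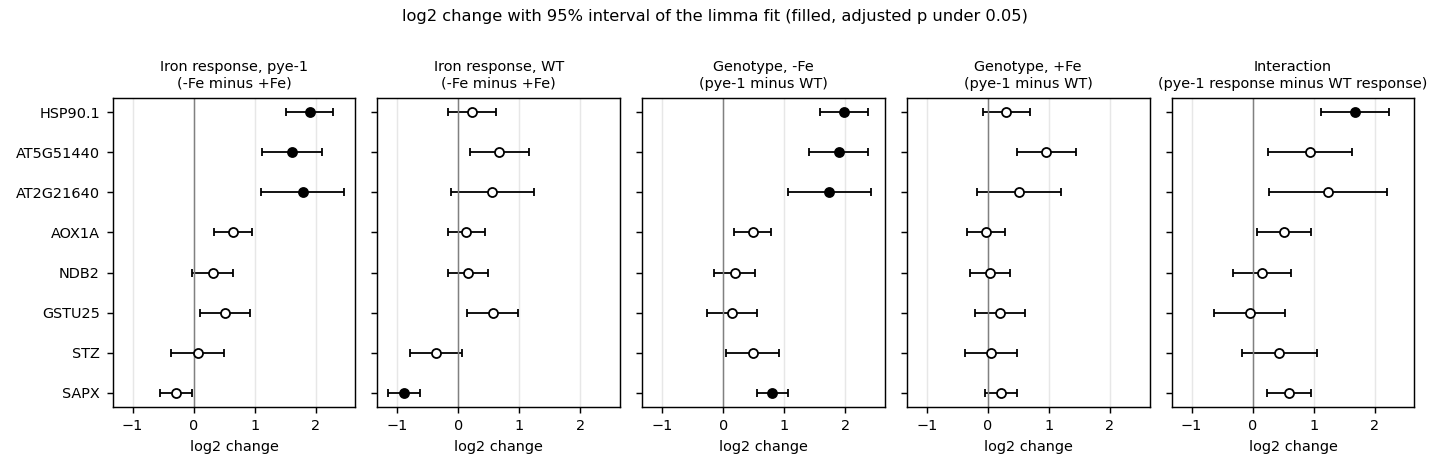
log2 change of each of the 8 genes in the 5 comparisons, as points with the 95% interval of the limma fit, filled where the adjusted p was under 0.05. HSP90.1, AT5G51440 and AT2G21640 are filled for the iron response in pye-1 and, with SAPX, for pye-1 against WT without iron, and none is filled for pye-1 against WT with iron.

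Of the genes of the alternative route of respiration, AOX1A, the main alternative oxidase of stressed Arabidopsis, read 1654 and 1442 in pye-1 -Fe, 1095 and 890 in pye-1 +Fe, 1134 and 1078 in WT -Fe and 1063 and 958 in WT +Fe. The 3 groups other than pye-1 -Fe lay close together, and pye-1 +Fe overlapped with both WT groups. Its iron response was 0.65 ± 0.14 in pye-1 (adjusted p = 0.0717, or 0.00158 with replicate number as a block), with 0.60 in replicate 1 and 0.70 in replicate 2. The block alone among the other settings called this change, and adjusted p of the limma fit reached 0.220 under the rest. With an array left out the change was 0.50 to 0.80. In WT the change was 0.13 ± 0.14, with a 95% interval of -0.18 to 0.44. The interaction was 0.51 ± 0.20 and did not pass (adjusted p = 0.828). Without iron the difference between pye-1 and WT was 0.48 ± 0.14 (adjusted p = 0.314, and 0.0192 with the block).

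NDB2, an external NAD(P)H dehydrogenase, read 905 and 700 in pye-1 -Fe, 662 and 623 in pye-1 +Fe, 722 and 675 in WT -Fe and 584 and 673 in WT +Fe. Replicate 1 of pye-1 -Fe was the highest array, while replicate 2 lay below WT -Fe replicate 1. The change in pye-1 was 0.31 ± 0.15 (adjusted p = 0.624) with a 95% interval of -0.02 to 0.64, and in WT it was 0.16 ± 0.15 (-0.18 to 0.49). The other NAD(P)H dehydrogenases measured, NDB1, NDB3 and NDC1, had changes of -0.29 to 0.40 in pye-1 and of -0.12 to 0.08 in WT, and none passed in any of the 5 comparisons. NDB4 was left out by the filter on low signal. The 12 genes listed for this route thus gave 5 tested probe sets and no call, against 1.05% of tested probe sets called in pye-1.

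GSTU25 encodes a tau class glutathione transferase, an enzyme that joins glutathione to reactive compounds. It read 859 and 1008 in pye-1 -Fe, 561 and 758 in pye-1 +Fe, 780 and 905 in WT -Fe and 496 and 656 in WT +Fe. In all 4 groups the replicate 2 array was the higher one, and within each replicate number both -Fe arrays were above both +Fe arrays. The change without iron was 0.51 ± 0.19 in pye-1 (adjusted p = 0.423, and 0.0161 with the block) and 0.56 ± 0.19 in WT (adjusted p = 0.333, and 0.00903 with the block). The interaction was -0.05 ± 0.26, with a 95% interval of -0.63 to 0.54, which leaves room for a difference between the genotypes of about the size of either response.

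SAPX, an ascorbate peroxidase of the chloroplast stroma that is also targeted to mitochondria, fell without iron in WT. It read 914 and 908 in pye-1 -Fe, 1115 and 1115 in pye-1 +Fe, 550 and 492 in WT -Fe and 969 and 957 in WT +Fe. No groups overlapped, and WT -Fe stood far below the rest. Its change in WT was -0.89 ± 0.12 (adjusted p = 0.00400). In pye-1 the change was -0.29 ± 0.12 (adjusted p = 0.507). Without iron SAPX was higher in pye-1 than in WT by 0.81 ± 0.12 (adjusted p = 0.0139). In all, 4 of the 8 genes were called higher in pye-1 on this medium, where 0.327% of tested probe sets were. The interaction, 0.60 ± 0.17, did not pass (adjusted p = 0.598). The call in WT was lost without WT -Fe replicate 2 (-0.81, adjusted p = 0.0625), and that of the -Fe difference without any 1 of the 4 -Fe arrays (adjusted p of 0.0764 to 0.151).

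STZ encodes a zinc finger repressor induced by salt, cold and oxidative stress. It read 245 and 222 in pye-1 -Fe, 276 and 180 in pye-1 +Fe, 166 and 167 in WT -Fe and 215 and 215 in WT +Fe. For STZ, as for SAPX, both WT -Fe arrays lay below all 6 others, a pattern of 3.95% of tested probe sets, and the pye-1 +Fe arrays spanned nearly the whole range. Its changes were 0.07 ± 0.20 without iron in pye-1 (-0.36 to 0.50) and -0.37 ± 0.20 in WT (-0.80 to 0.07), and pye-1 differed from WT without iron by 0.49 ± 0.20 (adjusted p = 0.636). With iron none of the 8 genes differed between the genotypes at the threshold, where 0.0628% of tested probe sets did, and AT5G51440 alone of the 8 had an unadjusted p under 0.05 (0.00132). With replicate number as a block, 5 of the 8 passed in the iron response of pye-1, against 2.65% of tested probe sets, and 2 in that of WT, against 3.05%. Under the block, 5 passed between the genotypes without iron, against 1.71%, none with iron, against 0.345%, and 1 in the interaction, against 0.352%.

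The profiles of the 8 genes were alike to different degrees. Over the 8 arrays, log2 signals of HSP90.1, AT5G51440, AT2G21640 and AOX1A correlated at 0.87 to 0.96 in all pairs (Pearson). With these 4, NDB2 correlated at 0.73 to 0.80 and GSTU25 at 0.49 to 0.64. SAPX correlated with these 4 at -0.07 to 0.14, and STZ at 0.25 to 0.43. All of these correlations share the same 8 arrays, which form 4 groups of 2, and they are given as a description with no test.

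Other genes of the same pathways were read from lists compiled by function, with earlier results of these data known. Their calls are thus a description and not independent evidence. Of 14 genes of the mitochondrial stress regulon and its regulators, 7 had a tested probe set and 2 of these are not among the 8 genes. AT2G41730, which responds to mitochondrial stress, read 937 and 652 in pye-1 -Fe, 359 and 278 in pye-1 +Fe, 281 and 288 in WT -Fe and 193 and 153 in WT +Fe. The order of the groups was near that of AT5G51440, and pye-1 +Fe overlapped with WT -Fe. Of all tested probe sets, 0.848% were called higher without iron in pye-1. Without iron, 0.327% were called higher in pye-1 than in WT. AT2G41730 rose without iron in pye-1 by 1.31 ± 0.20 (adjusted p = 0.0107) and was higher in pye-1 than in WT without iron by 1.46 ± 0.20 (adjusted p = 0.0104). Its WT response was 0.73 ± 0.20 (adjusted p = 0.194, or 0.0119 under the block), and with iron the difference between pye-1 and WT was 0.88 ± 0.20 (adjusted p = 0.330, and 0.0160 with the block). Both calls were lost without pye-1 -Fe replicate 1 (adjusted p = 0.0999 and 0.0847). The first was also lost without pye-1 +Fe replicate 2 (0.0842), and the second without WT -Fe replicate 1 or 2 (0.103 and 0.0828). Its probe set has the suffix that the array maker gives to probes that may bind other transcripts. The other gene, At12Cys-2 (AT5G09570), read highest in WT -Fe, with 35.5 and 36.2 in pye-1 -Fe, 51.2 and 40.6 in pye-1 +Fe, 68.2 and 60.3 in WT -Fe and 44.7 and 33.2 in WT +Fe. Its changes were -0.35 ± 0.28 in pye-1 and 0.74 ± 0.28 in WT, and neither passed.

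**Figure D3:**
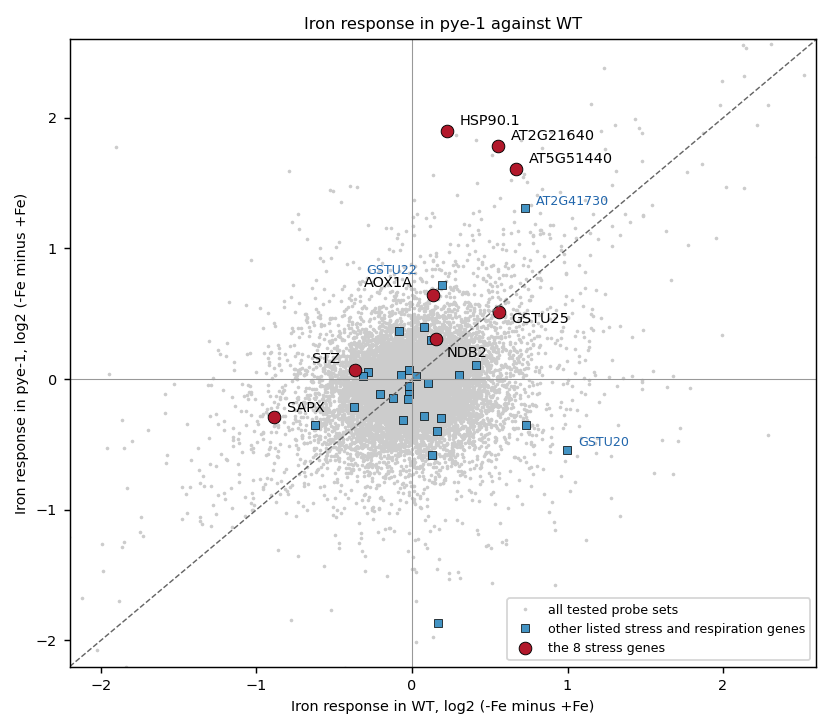
log2 iron response in pye-1 (vertical axis) against WT (horizontal axis) for all 15922 tested probe sets (grey, 50 outside the axes), other listed stress and respiration genes (blue squares) and the 8 genes (red circles), with the line of equal response dashed. HSP90.1, AT2G21640 and AT5G51440 lie at 1.61 to 1.90 in pye-1 and 0.23 to 0.67 in WT, and GSTU25 lies near the line.

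Of the 28 tau class glutathione transferases, 9 had a tested probe set, GSTU25 among them, and 1 of the other 8 was called, in the iron response of pye-1, where 1.05% of all tested probe sets were called. With the block, 2 of these 8 were called between the genotypes without iron, GSTU20 and GSTU22, where 1.71% of all tested probe sets were. GSTU22 read 3877 and 3510 in pye-1 -Fe, 2461 and 2031 in pye-1 +Fe, 2526 and 2696 in WT -Fe and 2524 and 2061 in WT +Fe, so that pye-1 -Fe stood above all other arrays. It rose without iron in pye-1 by 0.72 ± 0.14 (adjusted p = 0.0427), and in WT its change was 0.19 ± 0.14. Without iron pye-1 differed from WT by 0.50 ± 0.14 (adjusted p = 0.300, and 0.0253 with the block). The call in pye-1 was lost without pye-1 +Fe replicate 2, without either pye-1 -Fe array or without either WT -Fe array, with adjusted p of 0.0722 to 0.315. GSTU20 had its highest arrays in WT -Fe. It read 55.8 and 47.9 in pye-1 -Fe, 76.9 and 73.6 in pye-1 +Fe, 110 and 111 in WT -Fe and 51.1 and 60.0 in WT +Fe. Its change was -0.54 ± 0.21 in pye-1 and 1.00 ± 0.21 in WT (adjusted p = 0.490 and 0.0686, with 0.0269 for WT under the block), and without iron pye-1 differed from WT by -1.10 ± 0.21 (adjusted p = 0.0729, and 0.0242 with the block). The interaction of GSTU20 was -1.54 ± 0.30 and did not pass (adjusted p = 0.225, and 0.0713 with the block). The median change of the 8 other glutathione transferases was -0.28 in pye-1 and 0.15 in WT.

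Of 29 heat shock proteins and regulators, 6 had a tested probe set, and the 4 that are not HSP90.1 or AT5G51440 gave no call in any comparison. Of all tested probe sets, 1.05% were called in the iron response of pye-1 and 0.0628% between the genotypes with iron. Among them the cytosolic HSP70-3 read 2199 and 2193 in pye-1 -Fe, 1785 and 1780 in pye-1 +Fe, 1676 and 1850 in WT -Fe and 1566 and 1677 in WT +Fe, with a change of 0.30 ± 0.11 in pye-1 (adjusted p = 0.443). HSC70-2, HSP17.6B and HSP15.7 were the other 3, and the changes of all 4 lay between -0.31 and 0.30 in pye-1. Between the genotypes the differences of the 4 were -0.21 to 0.35 without iron and 0.04 to 0.63 with iron. The highest was that of HSC70-2 with iron, which read 297 and 278 in pye-1 +Fe and 181 and 191 in WT +Fe. The heat-inducible HSP22, HSP17.6C and HSP26.5 were left out by the filter on low signal.

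Of 18 ascorbate peroxidases and enzymes of the ascorbate-glutathione cycle, 5 had a tested probe set, and none of the 4 other than SAPX passed. In the iron response of pye-1, 1.05% of all tested probe sets were called. TAPX, the thylakoid ascorbate peroxidase, read 34.0 and 5.63 in pye-1 -Fe, 37.0 and 68.6 in pye-1 +Fe, 49.1 and 40.04 in WT -Fe and 49.6 and 31.3 in WT +Fe. The low pye-1 -Fe replicate 2 value lay under the control level of its array and set its change of -1.86 ± 0.69 (adjusted p = 0.440), which was -0.12 in replicate 1. MDAR2, GR1 and GR2, which regenerate ascorbate and glutathione, had changes of -0.30 to -0.11 in pye-1 and of -0.20 to 0.18 in WT.

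Of 11 genes of respiratory proteins and aconitases that carry iron, 6 had a tested probe set and none was called, against 1.05% of all tested probe sets in the iron response of pye-1. For the tested probe sets of the iron-sulfur subunits of succinate dehydrogenase, both WT -Fe arrays lay below all 6 others, a pattern of 3.95% of tested probe sets. A second SDH2-1 probe set, at 0.78 to 11.7, was left out by the filter on low signal. The tested SDH2-1 probe set read 2249 and 2037 in pye-1 -Fe, 1979 and 2147 in pye-1 +Fe, 1550 and 1484 in WT -Fe and 1755 and 1933 in WT +Fe. SDH2-2 read 1121 and 1162 in pye-1 -Fe, 1128 and 1115 in pye-1 +Fe, 866 and 811 in WT -Fe and 1079 and 1008 in WT +Fe. Without iron pye-1 differed from WT by 0.50 ± 0.12 for SDH2-1 and 0.45 ± 0.11 for SDH2-2 (adjusted p = 0.155 and 0.211), and by 0.66 ± 0.23 for the cytochrome c gene CYTC-2 (adjusted p = 0.503). With replicate number as a block these 3 of the 6, singled out after their values were seen, passed (adjusted p = 0.0181, 0.0275 and 0.0181), where 1.71% of all tested probe sets did. In the fit without the block the median difference of the 6 without iron was 0.28, against -0.03 over all tested probe sets. With iron it was 0.16, against 0.02. These medians are a description and no evidence about the list. Of 10 stress-related zinc finger genes, STZ and ZAT5 were tested, and ZAT5 had changes of 0.03 in pye-1 and -0.07 in WT. No probe set was named for the 10 superoxide dismutases and catalases or the 9 rapid stress response genes listed.

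Among 8793 tested probe sets that name 1 gene, the 5 most like AT2G21640, by Pearson correlation of log2 signal over the 8 arrays, were PUB19 (0.99), AT3G47630 (0.97), AT3G03270 (0.97), AT1G74450 (0.96) and AT5G20030 (0.95). AT3G47630 has the locus number next to that of PYE, and a local effect of the mutation on its level was not tested. PUB19, a U-box ubiquitin ligase, read 141 and 132 in pye-1 -Fe, 45.3 and 51.5 in pye-1 +Fe, 62.4 and 46.1 in WT -Fe and 42.6 and 37.7 in WT +Fe. It rose without iron in pye-1 by 1.50 ± 0.24 (adjusted p = 0.0137) and had a change of 0.42 ± 0.24 in WT. The 5 most like HSP90.1 were AT3G01350 (0.99), AT1G74450 (0.99), AT3G03270 (0.98), AT5G51440 (0.96) and PUB19 (0.96), 3 of them shared with AT2G21640. AT3G03270 read 1107 and 889 in pye-1 -Fe, 394 and 418 in pye-1 +Fe, 469 and 396 in WT -Fe and 299 and 342 in WT +Fe, and AT3G01350 read 535 and 415 in pye-1 -Fe and 184 to 211 on the other 6 arrays. The 5 most like AOX1A were GSTU22 (0.98), AT5G42830 (0.98), AT1G19110 (0.97), AT3G27220 (0.97) and SRC2 (0.96), none shared with the other sets. All 12 genes named in these sets, AT5G51440 among them, had both pye-1 -Fe arrays above all 6 others, as had 4.4% of tested probe sets. The genes were picked for this likeness, so it is a description.

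**Figure D4:**
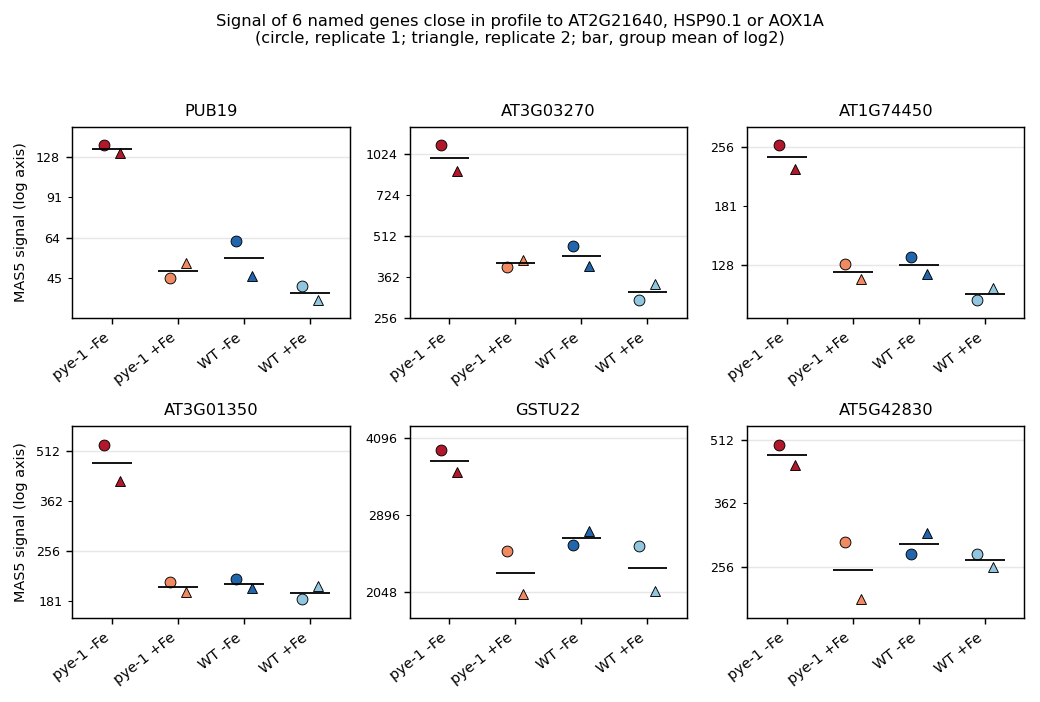
MAS5 signal (log axis) by array and group for 6 genes whose profile over the 8 arrays was close to that of AT2G21640, HSP90.1 or AOX1A, with replicate 1 as circles, replicate 2 as triangles and the group mean of log2 as a bar. In each panel both pye-1 -Fe arrays lie above the 6 others, for PUB19 at 141 and 132 against 37.7 to 62.4.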

How the data were processed

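RNA from whole roots was hybridised to 1-colour Affymetrix arrays, 2 in each of 4 groups. The deposited values are MAS5 intensity signals on a linear scale, per the submitters' processing notes, and the values show that the authors scaled each array to 1 common 2% trimmed mean (250.02). No MAS5 version is given in the sources used here. Of 22746 probe sets other than controls, 13513 named 1 gene, 503 several and 8730 none. Signals were taken to log2 with no further normalization, the 30% with the lowest mean were left out (a mean signal of 23.3), and 15922 were tested.

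One model with 4 group means was fitted with limma 3.58.1 in R 4.3.3 (eBayes with an intensity trend), with 5 contrasts and Benjamini-Hochberg adjustment over all tested probe sets at 0.05. It had 4 residual degrees of freedom and 6.32 from the prior. With 2 arrays against 2, an exact permutation test cannot go below p = 0.333, so none was used. p-values cover the spread between the labels' biological replicates.

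Same-numbered arrays deviated together in all 6 pairs of groups (correlations of 0.178 to 0.302), a pairing that comes from the data. The fit reported as the main one holds no block, and a fit with the replicate number as a block was an alternative. The labels name no batch. Other alternatives were no filter or a 50% filter, a floor at the control level, a pseudocount of 16, median or quantile normalization, no intensity trend, only the arrays of a contrast, and leaving out each array.

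The 8 genes and all lists were chosen with earlier results of these data known. Of the lists, each gene past the threshold is named. NDB1, NDB3, NDC1, At12Cys-2, GSTU20, TAPX, MDAR2, GR1, GR2, SDH2-1, SDH2-2, CYTC-2, ZAT5 and the heat shock genes other than HSP90.1 and AT5G51440 were named after their values were seen. The 5 profiles most like AT2G21640, AOX1A and HSP90.1 were taken by correlation. No sequence or coordinate was used.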

Additional observations from a re-analysis of the deposited data

Results flagged for a closer look

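HSP90.1 passed the threshold in the test of the difference between the iron responses of the genotypes, but it was chosen with its changes in this comparison in view, so the value is a description. The response was larger in pye-1 than in WT by 1.68 on the log2 scale in the interaction of the limma fit (adjusted p = 0.0499), and it was 1.67 in replicate 1 and 1.68 in replicate 2. This call was lost whichever of the 8 arrays was dropped (adjusted p of 0.0690 to 0.244). It was also lost with no filter, a 50% filter, quantile normalization or no intensity trend (adjusted p = 0.0672, 0.0557, 0.0652 and 0.340).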

How the results depend on the processing

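Of the 8 genes, 3 were called in the iron response of pye-1, 1 in that of WT, 4 between genotypes without iron, 0 between genotypes with iron and 1 in the interaction. With replicate number as a block these counts were 5 in pye-1, 2 in WT, 5 without iron and 0 with iron, and HSP90.1 stayed called in the interaction (adjusted p = 0.00433). The added calls were AOX1A and GSTU25 in pye-1, GSTU25 in WT and AOX1A without iron. Without the intensity trend the counts were 2 between genotypes without iron and 0 in the interaction, and the interaction count was also 0 with no filter, a 50% filter or quantile normalization. With an array left out, the counts ranged over 1 to 3 in pye-1, 0 to 1 in WT, 1 to 4 without iron and 0 in the interaction.

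Without the trend AT2G21640 missed the threshold in pye-1 (adjusted p = 0.0577), and without the filter as well (0.0514). Its call between genotypes without iron was lost under both (0.107 and 0.104), and that of SAPX without the trend (0.0941). AT2G41730 missed the threshold in both of its comparisons without the trend (0.0700 and 0.0817), and GSTU22 without the trend, without the filter or with only the arrays of the contrast (0.178, 0.0819 and 0.0750). AT2G21640 was not tested under the 50% filter. Over all tested probe sets, the calls in pye-1 were 167, against 422 with the block, 99 without the trend and 87 to 156 with an array left out. In WT they were 155, against 485, 90 and 83 to 173. Without iron they were 74, against 273, 26 and 20 to 88. With iron they were 10, against 55 with the block, 5 with the 50% filter, 3 with only the arrays of the contrast and 6 to 18 with an array left out, and 897 had an unadjusted p under 0.05. In the interaction they were 14, against 56 with the block, 8 with no filter or the 50% filter, 9 with quantile normalization, 0 without the trend and 0 to 10 with an array left out.

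Signs turned in genes that were not called, with an array left out. These changes ranged over -0.24 to 0.38 for STZ in pye-1. Between genotypes with iron they were -0.068 to 0.14 for NDB2, -0.023 to 0.41 for GSTU25, -0.25 to 0.36 for STZ and -0.18 to 0.12 for AOX1A. In the interaction they were -0.031 to 0.34 for NDB2 and -0.26 to 0.17 for GSTU25. The causes were not tested. Over the 8 genes and 5 comparisons, 334 of 347 values under other settings and 283 of 320 with an array left out kept their direction and their side of the threshold.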
